A study of Mus musculus with 24 samples.

Results

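The brains of mice without the transfer RNA gene tRNA-Phe-1-1 were compared with the brains of mice without tRNA-Phe-2-1, a single gene of another isodecoder group. The comparison used 3 tRNA-Phe-1-1-/- and 3 tRNA-Phe-2-1-/- brain samples, which are 6 of the 24 bulk RNA-seq samples of the study, with 3 WT and 3 tRNA-Phe-3-1-/- brains in the same fit. The other 12 samples were livers of the same 4 genotypes. All mice were on the C57BL/6N background and fed normal chow, and the knockouts were homozygous for a Cas9-induced deletion in a single tRNA gene. The housing methods of the study name male mice, while its reporting summary covers both sexes. The RNA was described as total brain RNA, and no brain region was given for any sample in the sources used here. The question was whether losing a gene from the 5-copy tRNA-Phe-1 group and losing the single tRNA-Phe-2 gene leave the same transcriptome. Values are normalised counts, that is, read counts per gene divided by a factor for the depth of the sample, and a positive log2 fold change means a higher level in tRNA-Phe-1-1-/- than in tRNA-Phe-2-1-/-.

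Transfer RNAs read codons of the messenger RNA at the ribosome and deliver the matching amino acid. Those with the GAA anticodon read the phenylalanine codons TTT and TTC. Isodecoders share the anticodon and differ elsewhere in the molecule, so that genes of different groups can supply the same codons. A shortage of charged transfer RNA or slowly moving ribosomes can engage the integrated stress response, and misfolded secretory or cytosolic proteins engage the unfolded protein response of the endoplasmic reticulum (ER) and the heat shock response, respectively.

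The guide used for the deletions matched the mouse genome (GRCm39) exactly at 7 places, all of them in tRNA-Phe genes of 73 bases, and 5 of these genes had 1 identical sequence. The genes for the lines compared are shown because they define the comparison, 5′ to 3′ on the strand of the gene, with the 20 bases matched by the guide in capitals. The tRNA-Phe-1-1 gene lies at chr5:125483119-125483191 on the minus strand and the tRNA-Phe-2-1 gene at chr19:11985909-11985981 on the plus strand, and both are followed by an AGG PAM at the guide site.
tRNA-Phe-1-1: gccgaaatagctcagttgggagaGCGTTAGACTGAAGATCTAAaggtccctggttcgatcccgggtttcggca
tRNA-Phe-2-1: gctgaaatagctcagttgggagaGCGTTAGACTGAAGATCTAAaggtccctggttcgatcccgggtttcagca
Counted from 1 at the 5′ end, the tRNA-Phe-2-1 gene carried 2 substitutions relative to tRNA-Phe-1-1, C3T and G70A, which lie opposite each other in the acceptor stem. The allele of the tRNA-Phe-1-1-/- line removed 20 bases and left 53 bases. The deletion was placed at positions 41 to 60 of the gene (chr5:125483132-125483151), shown in capitals in the next sequence. The bases gatc just before this stretch also end it, so a slightly earlier placement leaves the same 53 bases.
tRNA-Phe-1-1 with the deleted bases in capitals: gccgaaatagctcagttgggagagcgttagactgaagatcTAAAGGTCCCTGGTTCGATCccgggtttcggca
The bases lost in the tRNA-Phe-2-1-/- line are not analysed here. Nuclear tRNA genes are not among the rows analysed here, so the deletions could not be checked in these samples.

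The 12 brain samples held 30365760 to 46225360 reads, as recovered from the normalised counts, and the deepest was replicate C of tRNA-Phe-2-1-/-. The tRNA-Phe-1-1-/- samples had 25464 to 25651 genes with a count above 0 and the tRNA-Phe-2-1-/- samples 26041 to 27106, and the part of this gap in the results was not tested. Markers of brain regions differed between samples of the same genotype, and 2 of the 6 samples stood apart. In tRNA-Phe-1-1-/- replicate A, 9 olfactory bulb genes were on average 3.86 log2 units above the WT mean, against 0.28 and 1.01 in replicates B and C, and 16 striatal genes differed from the WT mean by -1.60, against 1.89 and 2.01. In tRNA-Phe-2-1-/- replicate C, 17 choroid plexus genes were on average 3.17 log2 units above the WT mean and 12 thalamic genes 2.49 above it. In replicates A and B of tRNA-Phe-2-1-/- the difference of the choroid plexus genes from the WT mean was -2.47 and -2.11. The summed count of the choroid plexus markers was 57387 in that replicate C and between 330 and 761 in the other 5 samples. WT replicates A and C, at 0.72 and 1.22, also lay above the WT mean for choroid plexus and WT replicate B below it at -1.94. The 2 samples that stood apart were therefore left out together as an added setting, and counts with and without them are given beside the results. Bulk tissue cannot tell apart fewer cells of a type and less RNA per cell.

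**Figure D1:**
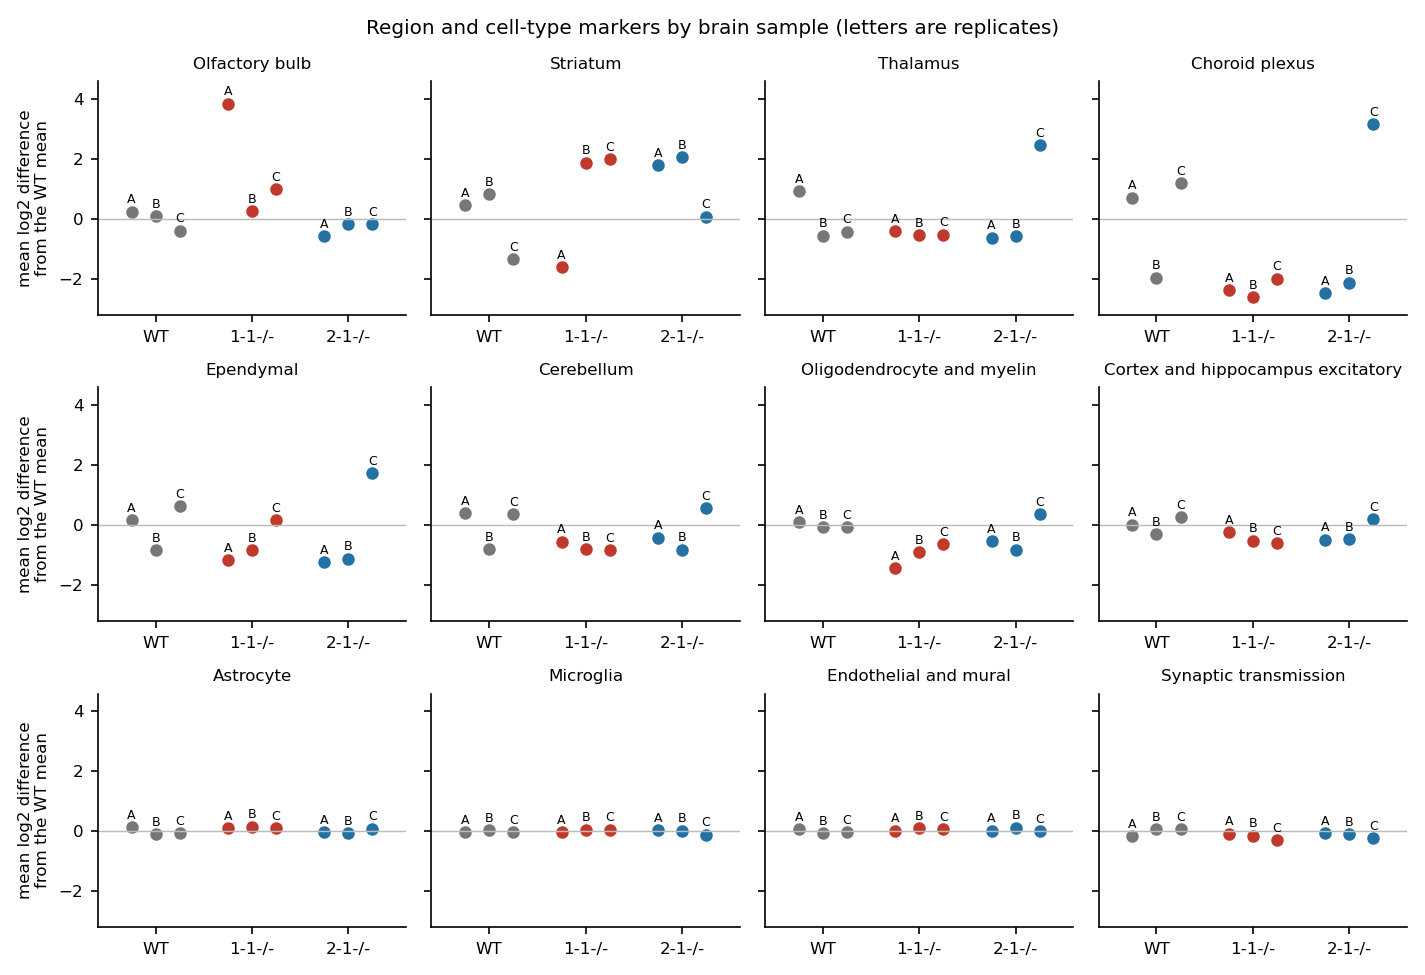
Mean log2 difference from the WT mean (y axis) for the tested genes of 12 region or cell-type marker lists, 1 panel per list, in each brain sample (points, with the replicate letter) of WT, tRNA-Phe-1-1-/- and tRNA-Phe-2-1-/-. Replicate A of tRNA-Phe-1-1-/- stands apart for olfactory bulb and striatum and replicate C of tRNA-Phe-2-1-/- for thalamus, choroid plexus and ependyma, whereas astrocyte, microglial, endothelial and synaptic genes lie between -0.30 and 0.16 in every sample shown.

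Of 19228 genes tested, 102 passed the threshold of an adjusted p below 0.05 (limma, Benjamini-Hochberg), which is 0.530% of the genes. Among them 76 were higher in tRNA-Phe-1-1-/- (0.395% of the genes tested) and 26 were lower (0.135%). The 3 and 3 samples did not overlap for any of the 102, whereas this held for 20.8% of all genes tested. A change of more than 2-fold was fitted for 29 of the higher and 9 of the lower genes, and 93 of the 102 were protein-coding. The median log2 fold change of all genes was -0.01. The count was sensitive to single samples. It was 11 without tRNA-Phe-2-1-/- replicate B, 18 without tRNA-Phe-1-1-/- replicate C, 27 without tRNA-Phe-1-1-/- replicate B, 34 without tRNA-Phe-2-1-/- replicate A, 57 without tRNA-Phe-2-1-/- replicate C, and 59 without either WT replicate C or tRNA-Phe-3-1-/- replicate A. Without the 2 samples that stood apart it was 36, of which 25 were among the 102. A fit on the 6 samples alone, which has fewer samples to estimate the spread, called 6 genes.

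**Figure D2:**
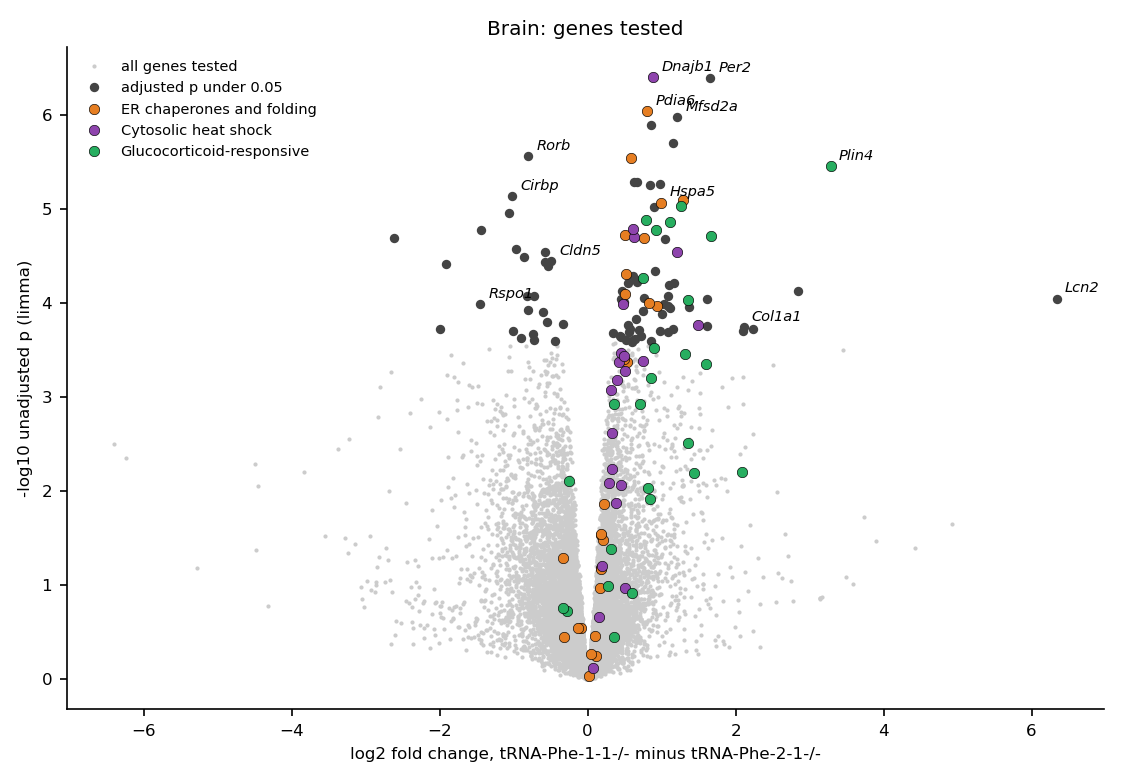
Log2 fold change (x axis, tRNA-Phe-1-1-/- minus tRNA-Phe-2-1-/-) against the -log10 unadjusted p from limma (y axis) for the genes tested in brain; 1 gene listed at 0 in all tRNA-Phe-1-1-/- samples lies outside the x axis. Dark points passed the adjusted threshold and coloured points are members of 3 gene lists, of which the ER chaperones and cytosolic heat shock genes that passed all lie on the right.

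Chaperones of the ER were the list with the most called genes. This list and those below were chosen with earlier results of these data known, so their counts are not independent support. Of all genes tested, 0.395% were called higher and 0.135% lower. Of 27 tested genes of the ER chaperone and folding list, 10 were higher in tRNA-Phe-1-1-/- and none was lower, and 23 of the 27 had a positive log2 fold change. The list median was 0.21, against -0.01 for all genes. Hspa5, which encodes the main HSP70 chaperone of the ER lumen (BiP), had 14754, 15118 and 17260 normalised counts in the 3 tRNA-Phe-1-1-/- brains and 8498, 6943 and 8295 in the tRNA-Phe-2-1-/- brains. All 3 tRNA-Phe-1-1-/- values lay well above the others, and the log2 fold change was 0.99 ± 0.13 (SE, n = 3 per group; limma, adjusted p = 0.00965). Pdia6, a protein disulphide isomerase that forms and rearranges disulphide bonds, had 4455, 4490 and 5030 counts against 2790, 2638 and 2558. Its log2 fold change of 0.81 ± 0.08 (SE; limma, adjusted p = 0.00408) passed the threshold in each of the 12 fits that left out 1 brain sample.

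Sdf2l1, a component of the ER chaperone complex, was at 583, 531 and 653 counts against 240, 185 and 308, a 2.45-fold difference and the largest in the list. Calr, a calcium-binding lectin chaperone of glycoproteins, was at 12630, 14110 and 14110 against 9271, 8699 and 9306, a smaller difference with little spread. The remaining called members were Creld2 and Pdia4, which act on disulphide bonds, the disulphide isomerase Pdia3, the BiP cofactor Dnajb11, the nucleotide exchange factor Hyou1 and the secreted survival factor Manf. Their log2 fold changes ran from 0.50 for Hyou1 to 0.94 for Creld2. Hspa5 and these 6 genes fell outside the rule for named genes and were chosen after their values were seen, as were the other members of the lists called below that are not among the genes of that rule. WT lay nearer to tRNA-Phe-2-1-/- than to tRNA-Phe-1-1-/- for 19 of the 27 tested members, and for 61.4% of all genes tested. Of the 10 calls, 2 were left without tRNA-Phe-1-1-/- replicate C, 3 without tRNA-Phe-2-1-/- replicate B, and 4 without tRNA-Phe-1-1-/- replicate B, without tRNA-Phe-2-1-/- replicate A or without the 2 samples that stood apart. The list median was between 0.21 and 0.25 in the fits that left out 1 sample.

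Many ER chaperone genes are known to carry an ER stress element close to their start, searched here on both strands as CCAAT and CCACG with 9 bases of any kind between them. RefSeq promoters of 300 bases (GRCm38.p6, 250 before to 50 after the start) were found for 8 of the 10 called chaperone genes. Of these 8 promoters, 4 held the element (Hspa5, Creld2, Pdia6 and Calr), against 35 of all 27025 promoters, or 0.13%. Among all tested members of the list, called or not, 8 of 23 promoters held it. Its first letters are also those of the CCAAT box, which 37.9% of all promoters hold. No promoter of the 19 found among the 26 lower genes held it. The 120 bases that hold the element are shown for the 3 of these genes with the largest difference, on the strand of the gene, with the element in capitals.
Hspa5 (chr2:34771970-34772089, plus strand): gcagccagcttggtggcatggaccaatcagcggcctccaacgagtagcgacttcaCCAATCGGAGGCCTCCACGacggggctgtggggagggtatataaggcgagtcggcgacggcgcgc
Creld2 (chr15:88819500-88819619, plus strand): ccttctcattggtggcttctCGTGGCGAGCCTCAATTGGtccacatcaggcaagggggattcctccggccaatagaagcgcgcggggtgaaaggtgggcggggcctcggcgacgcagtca
Pdia6 (chr12:17266469-17266588, plus strand): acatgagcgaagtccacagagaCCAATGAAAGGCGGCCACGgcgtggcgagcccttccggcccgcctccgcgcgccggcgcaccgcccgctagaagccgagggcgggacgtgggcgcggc
In Hspa5 the element began 65 bases before the start, in Pdia6 98 bases before it, and in Creld2 it began 126 bases before the start and reads on the opposite strand. A match of letters is not a measurement of binding.

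Of 39 tested members of the wider ER quality control list, 2 were higher and none lower. The median was 0.11, 30 of the 39 log2 fold changes were positive and 10 genes had an unadjusted p below 0.05. Xbp1, a transcription factor of the unfolded protein response, was at 3605, 3740 and 4171 counts against 2655, 2256 and 2321, a log2 fold change of 0.67 ± 0.08 (SE; limma, adjusted p = 0.00776). Herpud1, a part of the machinery that removes misfolded ER proteins, was at 2441, 2348 and 2528 against 1692, 1390 and 1774, and its call was kept in 2 of the 12 fits that left out 1 sample. Derl3, another degradation factor, had a log2 fold change of 1.36 that did not pass (limma, adjusted p = 0.0712). In the integrated stress response list, 1 of 29 genes was higher, Gpt2, an alanine aminotransferase, at 2860, 3174 and 2849 counts against 1864, 1779 and 2130. The median of this list was 0.24, 23 of its 29 log2 fold changes were positive, and 9 members had an unadjusted p below 0.05. The mTORC1 inhibitor Ddit4 and the central factor Atf4 had log2 fold changes of 0.90 and 0.35 that did not pass (limma, adjusted p = 0.0533 and 0.094). The values of the other members ran from -0.74 for Trib3 to 1.16 for Atf3, both outside the rule for named genes and neither past the threshold.

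**Figure D3:**
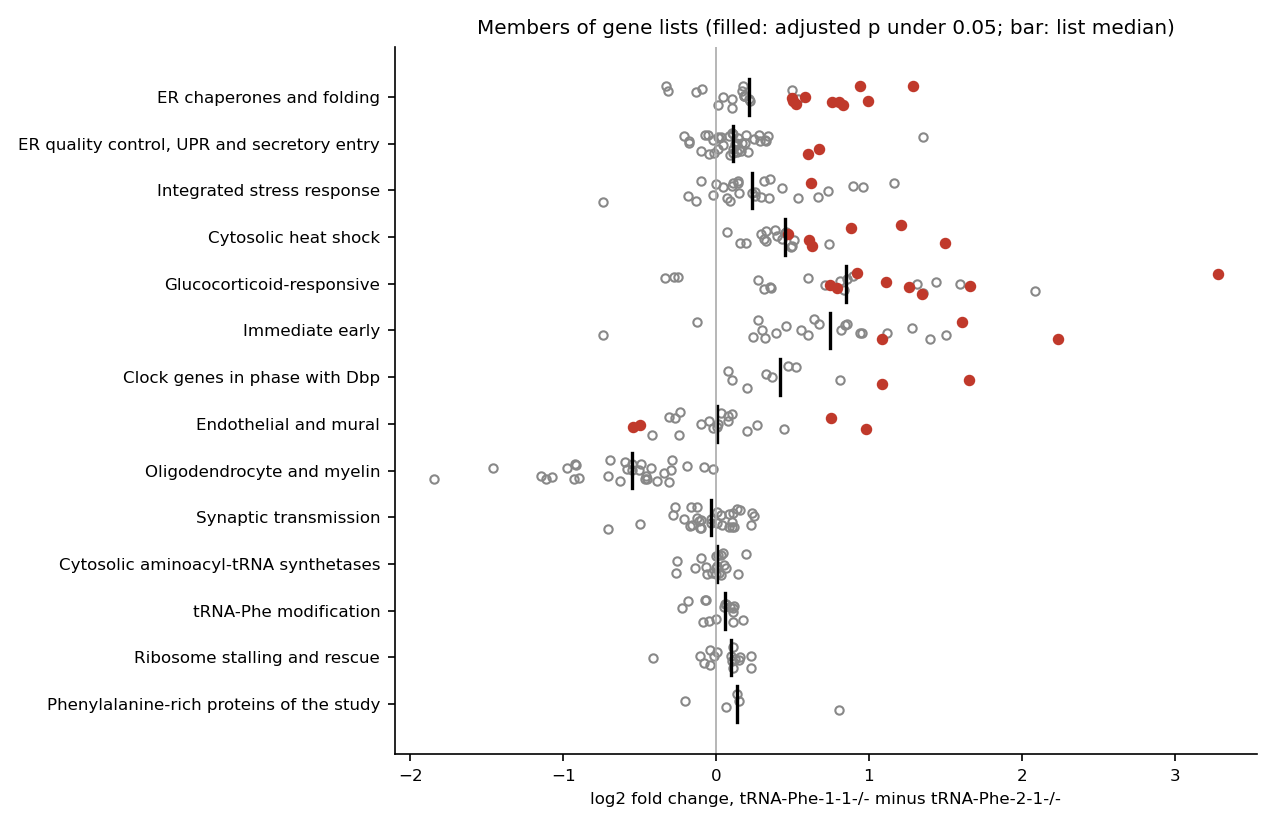
Log2 fold change (x axis) of every tested member of 14 gene lists (rows; points spread vertically for display), with filled points for an adjusted p below 0.05 and a bar at the list median. ER chaperones, cytosolic heat shock and glucocorticoid-responsive genes have 10, 6 and 8 filled points, all to the right of 0, while the myelin, synaptic, synthetase, tRNA-Phe modification, stalling and phenylalanine-rich lists have none.

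Of 22 tested cytosolic heat shock genes, 6 were higher in tRNA-Phe-1-1-/- and none was lower, and all 22 log2 fold changes were positive, with a median of 0.45. Dnajb1, an HSP40 co-chaperone, was at 2459, 2337 and 2648 counts against 1490, 1279 and 1274, a log2 fold change of 0.88 ± 0.08 (SE; limma, adjusted p = 0.00264) that passed in each of the 12 fits that left out 1 sample. Hspa1b, an inducible HSP70, was at 1064, 844 and 1078 counts against 384, 486 and 420. It has a near-identical copy, Hspa1a, with which it can share reads, so its level is uncertain. Hspb1, a small heat shock protein, was 2.82-fold higher, at 409, 365 and 496 against 153, 119 and 179. Hsph1, Stip1 and Cacybp, which assist HSP70 or HSP90, were higher by 0.63, 0.61 and 0.47 on the log2 scale. Of the 6 calls, 1 was left without tRNA-Phe-1-1-/- replicate C or without tRNA-Phe-2-1-/- replicate B, 2 without tRNA-Phe-1-1-/- replicate B, and 3 without tRNA-Phe-2-1-/- replicate A or C. Heat shock elements of 3 units (alternating GAA and TTC with 2 bases between them, either strand) were found in 1 of the 6 promoters of the called genes, that of Hsph1, and in 0.529% of all promoters.

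Cirbp, an RNA-binding protein induced at lower temperature, was lower in tRNA-Phe-1-1-/-. Its counts were 819, 577 and 766 against 1292, 1481 and 1595, a log2 fold change of -1.02 ± 0.13 (SE; limma, adjusted p = 0.00944). The call was lost only without tRNA-Phe-2-1-/- replicate B, among the fits that left out 1 brain sample.

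Of 26 tested genes that respond to glucocorticoid hormones, 8 were higher in tRNA-Phe-1-1-/- and none was lower, 23 of the 26 log2 fold changes were positive, and the median was 0.85. Fkbp5, a co-chaperone that dampens the glucocorticoid receptor, was at 1462, 2239 and 1880 counts against 784, 825 and 684. The log2 fold change was 1.26 ± 0.17 (SE; limma, adjusted p = 0.00965). Tsc22d3 (GILZ), an anti-inflammatory target of the receptor, was at 4134, 5712 and 5384 against 1960, 1473 and 2654. Plin4, a coat protein of lipid droplets, showed the larger difference, with 588, 974 and 1025 counts against 79.0, 63.6 and 123. This was 9.73-fold, and the WT brains, at 104, 75.0 and 84.7, overlapped with tRNA-Phe-2-1-/-.

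Angptl4, a secreted inhibitor of lipoprotein lipase, was at 120, 177 and 145 counts against 46.2, 43.5 and 46.5. The metallothioneins Mt1 and Mt2, which bind zinc and copper, were 1.73-fold and 2.16-fold higher. They are close paralogues, so reads can be split between them. Nfkbia, the inhibitor of NF-kappaB, and Fam107a completed the list of calls, with log2 fold changes of 0.92 and 0.74. A glucocorticoid response element (GNACA and TGTNC with 3 bases between them) was found in 1 of the 7 promoters available for the called genes, that of Mt1, and in 0.463% of all promoters. None of the 8 calls was left without tRNA-Phe-2-1-/- replicate B, 2 were left without tRNA-Phe-1-1-/- replicate C and 4 without tRNA-Phe-1-1-/- replicate B, while 7 were called without the 2 samples that stood apart. Of the lipid droplet and lipolysis list, Plin4 and Angptl4 were the members called of 18, and the median of that list was 0.08.

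Clock genes that peak in phase with Dbp are expressed rhythmically over the day. Of 10 tested members, 2 were higher in tRNA-Phe-1-1-/-, and all 10 log2 fold changes were positive, with a median of 0.42. Per2, a repressor of the circadian clock, was at 1434, 1414 and 1460 counts against 532, 401 and 440, with a log2 fold change of 1.66 ± 0.16 (SE; limma, adjusted p = 0.00264). The WT brains lay between the lines at 582, 678 and 931. Ciart, another clock repressor, was at 404, 436 and 496 against 187, 182 and 267. Dbp itself had a log2 fold change of 0.47 that did not pass (limma, adjusted p = 0.128). Of the 6 genes in phase with Bmal1, none passed (limma) and 1 had an unadjusted p below 0.05. In the liver, where tissue came from other samples, 6 of the 10 genes in phase with Dbp were higher in tRNA-Phe-1-1-/- with a list median of 2.35, and 3 of the 6 in phase with Bmal1 were lower with a median of -0.69. Calls were frequent in liver, where 7.37% of all genes tested were higher and 8.53% lower. The time of day at which tissue was taken was not given for each sample, and its part in the result was not tested.

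Immediate early genes, which neurons switch on briefly after activity, had 3 of 24 members called, all higher in tRNA-Phe-1-1-/-. Egr2 was at 468, 309 and 617 counts against 108, 56.9 and 134, Fosb at 449, 241 and 396 against 110, 107 and 126, and Fosl2 at 1486, 1399 and 1905 against 886, 702 and 668. These encode transcription factors, and the spread within tRNA-Phe-1-1-/- was wide for Egr2 and Fosb. The list median was 0.75, with 22 of 24 log2 fold changes positive. Here WT stood differently than for the ER and heat shock genes, a difference that was not tested. WT lay nearer to tRNA-Phe-2-1-/- for 5 of the 24 members, against 19 of 27 ER chaperones and 21 of 22 heat shock genes. The share over all genes tested was 61.4%, near that of the ER chaperones. The median of the immediate early list was 0.13 for tRNA-Phe-1-1-/- minus WT and -0.61 for tRNA-Phe-2-1-/- minus WT. No member was called without tRNA-Phe-1-1-/- replicate A or C, without tRNA-Phe-2-1-/- replicate A, B or C, or without tRNA-Phe-3-1-/- replicate A, and 1 without tRNA-Phe-1-1-/- replicate B or WT replicate A.

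Lcn2, an iron-scavenging acute phase protein released by reactive astrocytes and endothelium, showed the largest log2 fold change among the genes higher in tRNA-Phe-1-1-/-. Its counts were 221, 485 and 80.2 in tRNA-Phe-1-1-/- and 2.1, 0.0 and 4.4 in tRNA-Phe-2-1-/-, and 0.9, 2.1 and 23.7 in WT. The log2 fold change was 6.34 ± 1.07 (SE; limma, adjusted p = 0.0306), with the widest standard error of the named genes. The call was lost without any 1 of the 3 tRNA-Phe-1-1-/- samples and without tRNA-Phe-2-1-/- replicate A or B. Of 17 tested genes of the reactive glia list, Lcn2 and Hspb1 were called, and Gfap and Vim, which mark reactive astrocytes, had log2 fold changes of 0.33 and 0.36 that did not pass.

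Genes of the blood vessel wall moved in both directions. Of 21 tested endothelial and mural genes, 2 were higher and 2 lower, and the list median was 0.00. Ly6c1, a surface protein of brain endothelium, was at 1035, 1304 and 903 counts against 584, 514 and 526, and Slc2a1, the glucose transporter of the blood-brain barrier, at 1682, 2460 and 1930 against 1167, 1084 and 1313. Mfsd2a, the lysolipid transporter of the barrier, was named by the rule for large changes and not by this list. It was at 961, 972 and 880 counts against 397, 384 and 431, a log2 fold change of 1.21 ± 0.13 (SE; limma, adjusted p = 0.00408), and passed in each of the 12 fits that left out 1 sample.

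The endothelial genes on the other side were Cldn5, a tight junction protein, and Tek, the angiopoietin receptor. Cldn5 was at 894, 843 and 899 counts against 1252, 1261 and 1216, and Tek at 492, 455 and 457 against 729, 662 and 654, so that both differences were small but with little spread. Their log2 fold changes were -0.50 ± 0.08 and -0.54 ± 0.08 (SE; limma, adjusted p = 0.0191 and 0.0199). Col1a1, the collagen chain of meningeal and vascular fibroblasts, was at 682, 534 and 718 against 207, 124 and 126, and was the single called gene of 14 meningeal markers. For Col1a1 the WT values of 543, 314 and 506 lay nearer to tRNA-Phe-1-1-/-. Its call was kept in 3 of the 12 fits that left out 1 sample. Ctla2a, a protease inhibitor, and Acer2, an alkaline ceramidase, were also among the 15 largest rises, at 1.37 and 1.16 on the log2 scale.

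**Figure D4:**
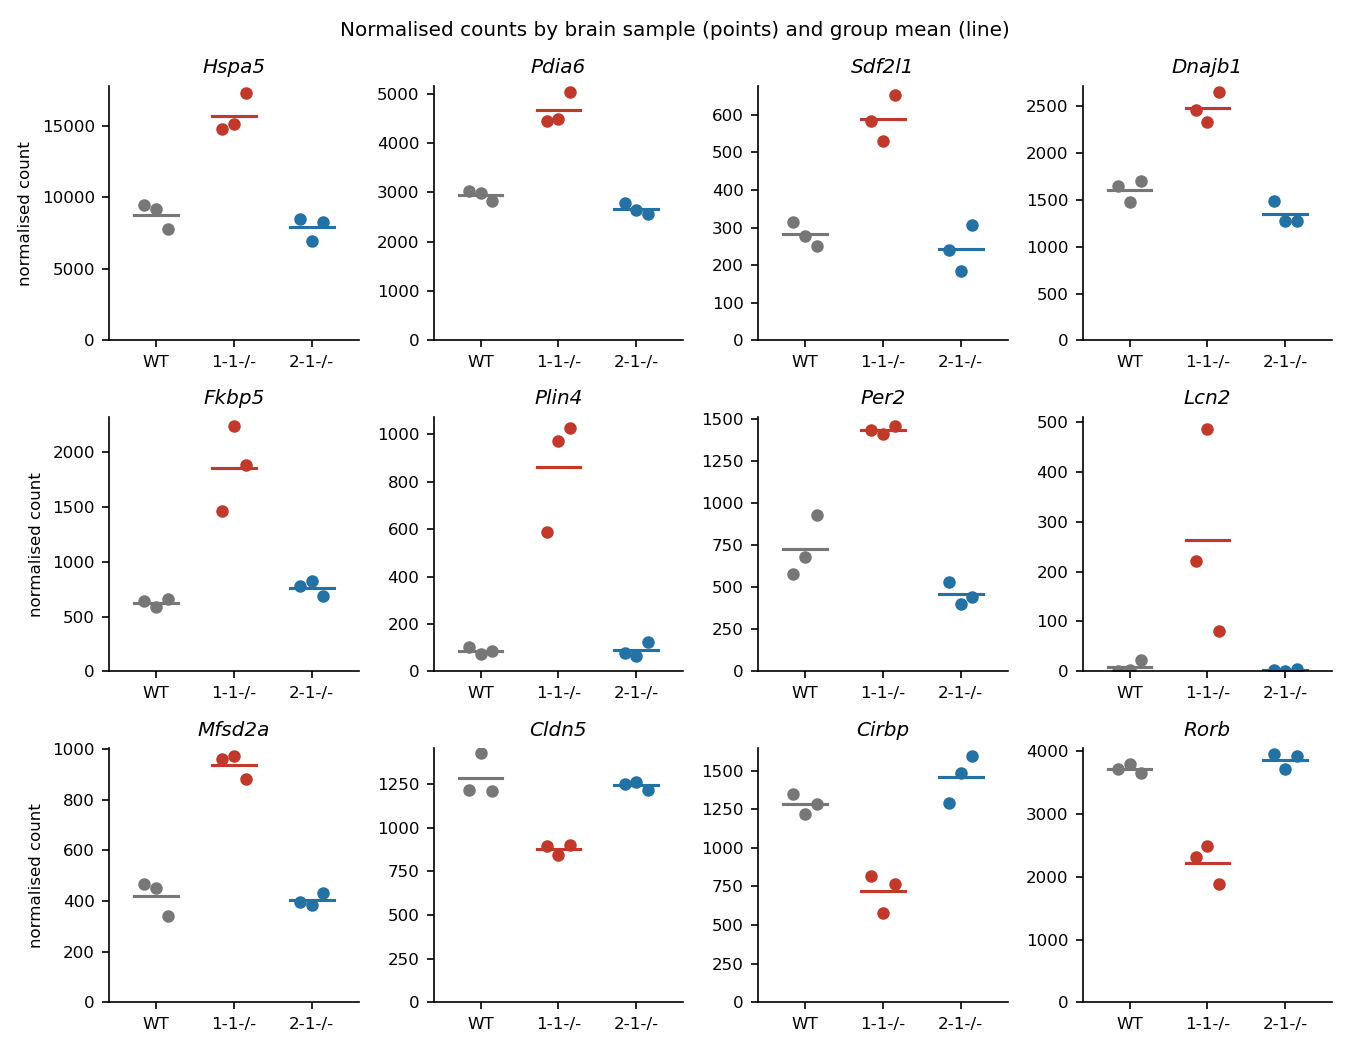
Normalised counts (y axes, from 0) of 12 genes in each WT, tRNA-Phe-1-1-/- and tRNA-Phe-2-1-/- brain sample (points), with the group mean as a line. The 3 tRNA-Phe-1-1-/- points lie apart from the tRNA-Phe-2-1-/- points in every panel, above them for 9 genes and below them for Cldn5, Cirbp and Rorb. The 12 genes were picked from the called genes, none of which overlapped between the lines, so this separation follows from the choice.

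The falls were fewer and were spread over many functions. Rspo1, a secreted enhancer of Wnt signalling, was at 92.8, 83.1 and 76.2 counts in tRNA-Phe-1-1-/- against 245, 271 and 188 in tRNA-Phe-2-1-/-, a log2 fold change of -1.46 ± 0.25 (SE; limma, adjusted p = 0.0313). It was the single called gene of 19 in the R-spondin and Wnt list. Pla2g4e, a calcium-dependent enzyme that makes N-acyl phospholipids, was at 178, 156 and 117 against 381, 455 and 379. Rorb, a nuclear receptor that marks layer 4 neurons of the cortex, was at 2314, 2486 and 1890 against 3952, 3718 and 3926, a log2 fold change of -0.80 ± 0.09 (SE; limma, adjusted p = 0.00616).

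Rorb was the single call among 16 excitatory markers of cortex and hippocampus, whose median was -0.02, and it passed in each of the 12 fits that left out 1 sample. The layer 5 marker Fezf2 and the dentate gyrus marker Prox1 had log2 fold changes of 0.62 and -1.23 with standard errors of 0.31 and 0.62, and neither passed. The other named falls were Sinhcaf, a subunit of the SIN3 histone deacetylase complex, Rassf3, Klhdc9, the cation channel Trpm4, the centrosomal protein Ninl, the replication fork protein Tipin, the kinase Hunk and AI593442, with log2 fold changes from -1.07 for Sinhcaf to -0.72 for AI593442. For Sinhcaf the tRNA-Phe-2-1-/- values of 314, 301 and 264 lay above the WT values of 197, 200 and 186, and the tRNA-Phe-1-1-/- values of 128, 170 and 122 below them.

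The largest difference of all belonged to ENSMUSG00000104896.1, which had no symbol in the annotation used and was chosen after its values were seen. It was at 0 reads in all 3 tRNA-Phe-1-1-/- brains and at 1398, 360 and 414 counts in tRNA-Phe-2-1-/-. With a floor of 3 reads per library it was at least 227-fold lower in tRNA-Phe-1-1-/- by the mean of the 3 samples, at least 121-fold without tRNA-Phe-2-1-/- replicate A and at least 113-fold by the lowest sample. The WT brains held 284, 516 and 317 counts. Of the 9 called genes that were not annotated as protein-coding, Gm30571 had the largest rise, at 65.3, 64.4 and 55.1 counts against 9.2, 6.7 and 7.4, and was also chosen after its values were seen. In the liver, where ENSMUSG00000104896.1 had 1588, 1444 and 1704 counts in tRNA-Phe-1-1-/-, the lines overlapped, at 1414, 1781 and 824 in tRNA-Phe-2-1-/-.

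Myelin genes did not pass the test. All 31 tested genes of this list had a negative log2 fold change, with a median of -0.55, and 10 had an unadjusted p below 0.05. The median was -0.30 without tRNA-Phe-1-1-/- replicate A, -0.21 without tRNA-Phe-2-1-/- replicate C, -0.83 without tRNA-Phe-2-1-/- replicate B and 0.03 without both samples that stood apart. Opalin, a membrane protein of myelinating oligodendrocytes, had the largest at -1.85 ± 0.37 (SE; limma, adjusted p = 0.0544). Replicate C of tRNA-Phe-2-1-/- held the highest summed myelin count, 213980, and replicate A of tRNA-Phe-1-1-/- the lowest, 62880, while the other 4 samples held 89986 to 116262 and overlapped. The olfactory bulb, striatal, thalamic and choroid plexus lists also had no called gene, with medians of 1.92, -0.48, -1.02 and -1.68. These medians changed with single samples. Without tRNA-Phe-1-1-/- replicate A the olfactory bulb and striatal medians were 1.07 and 0.60. Without tRNA-Phe-2-1-/- replicate C the striatal, thalamic and choroid plexus medians were -1.09, 0.07 and 0.06. The striatal median was also -1.02 and -1.12 without tRNA-Phe-1-1-/- replicate B or C and -0.24 and -0.12 without tRNA-Phe-2-1-/- replicate A or B, the thalamic one -1.66 without tRNA-Phe-2-1-/- replicate A, and the choroid plexus one reached -2.73 without tRNA-Phe-2-1-/- replicate B, with a similar value without replicate A. The part of brain region in the results was not tested. The astrocyte and microglial lists had no call and medians of 0.09 and -0.05, and the synaptic transmission list, with 31 genes tested, had none and a median of -0.03. Among 10 oligodendrocyte precursor genes, Gpr17, a receptor of cells about to mature, was called at 0.64 on the log2 scale, while Vcan and Neu4 had 0.26 and 0.31 and did not pass.

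Genes that handle transfer RNA or stalled ribosomes showed no call. Of 20 cytosolic aminoacyl-tRNA synthetases, none passed and none had an unadjusted p below 0.05, and the median was 0.00. Farsa and Farsb, the subunits of the synthetase that charges tRNA-Phe, had log2 fold changes with 95% intervals of -0.21 to 0.21 and -0.09 to 0.37. No gene passed among 16 for tRNA-Phe modification (0 with an unadjusted p below 0.05) or 16 for stalling and rescue (1 with an unadjusted p below 0.05), with medians of 0.06 and 0.10.

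The 5 genes that the study chose for phenylalanine-rich proteins, Calb1, Calb2, Ncald, Slc32a1 and Capza1, had log2 fold changes from -0.20 to 0.81 and none passed. The interval of Calb2, a calcium-binding protein of interneurons, ran from -1.36 to 2.97. Its log2 fold change was -0.03 without tRNA-Phe-1-1-/- replicate A and 1.91 without tRNA-Phe-2-1-/- replicate C. Its counts of 1674, 230 and 381 against 133, 145 and 1406 were highest in the 2 samples that stood apart by region.

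The share of phenylalanine codons, which the test did not use, was computed from the annotated coding sequences (GENCODE vM39). It had a median of 3.60% of codons over the 14834 protein-coding genes tested that had a sequence, 3.25% over the 73 called higher and 3.26% over the 20 called lower. The interquartile range was 2.67% to 4.65% for all genes, 2.26% to 4.33% for those called higher and 2.72% to 4.55% for those called lower. Whether the shares differ was not tested. When genes were put into 5 groups of similar size by this share, 26 of 2976 genes (0.874%) were called in the lowest group and 14 of 2963 (0.472%) in the highest, with median log2 fold changes of 0.02 and 0.01. The 5 phenylalanine-rich genes had shares of 5.24% to 7.25%.

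How far each call rested on single samples differed among the 42 named genes that passed. Per2, Mfsd2a, Rorb, Pdia6, Calr and Dnajb1 passed in all 12 fits that left out 1 brain sample. Among these fits, Plin4, Xbp1, Gpt2, Cirbp and Ly6c1 lost the call only without tRNA-Phe-2-1-/- replicate B, and Sdf2l1 only without tRNA-Phe-1-1-/- replicate C. Of the 42, 35 lost the call without tRNA-Phe-2-1-/- replicate B, 30 without tRNA-Phe-1-1-/- replicate C, 25 without tRNA-Phe-1-1-/- replicate B or tRNA-Phe-2-1-/- replicate A, 17 without tRNA-Phe-1-1-/- replicate A and 14 without tRNA-Phe-2-1-/- replicate C. Leaving out a WT or tRNA-Phe-3-1-/- sample lost 0 to 15 of them. The fit on the 6 samples of the 2 lines alone kept 4 of the 42 calls. The sign of these 42 genes did not change in these fits. This was fixed in advance, because the samples of the 2 lines did not overlap for any of these genes. The unchanged sign therefore says nothing about how stable the calls are. Without the 2 samples that stood apart by region, 18 of the 42 passed, among them Plin4, Fkbp5, Per2, Mfsd2a, Rorb, Cirbp, Pdia6, Calr, Xbp1 and Dnajb1, and Lcn2, Hspb1, Cldn5 and Tek did not. Their log2 fold changes in that fit, which has fewer samples, were 6.83, 1.65, -0.53 and -0.61, against 6.34, 1.49, -0.50 and -0.54 with all samples.

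The genes next to the deleted tRNA genes were examined in RefSeq (GRCm38.p6). Of 8 tested genes within 500 kb of n-TFgaa7, the RefSeq entry of tRNA-Phe-1-1 (chr5:125406055-125406127), none passed (limma) and 1 had an unadjusted p below 0.05. Dhx37, an RNA helicase of ribosome assembly and the nearest tested gene at 7.6 kb, had a log2 fold change of 0.25 ± 0.19 (SE). Of 8 within 500 kb of n-TFgaa2, the RefSeq entry of tRNA-Phe-2-1 (chr19:12008545-12008617), none passed (limma) and 3 had an unadjusted p below 0.05. Osbp, a sterol transport protein and the nearest tested gene, had -0.11 ± 0.09. Stx3, a membrane fusion protein, had -0.38 ± 0.09 (limma, adjusted p = 0.0862). Ms4a6b and Ms4a6d, also with an unadjusted p below 0.05, had 1.40 ± 0.35 and 0.88 ± 0.31 (limma, adjusted p = 0.105 and 0.231).

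The levels in WT brains were set beside both lines. The WT mean was nearer to tRNA-Phe-2-1-/- for 93 of the 102 called genes, 68 of the 76 higher and 25 of the 26 lower, against 61.4% of all genes tested. Against WT, 202 genes passed for tRNA-Phe-1-1-/- (1.05% of the genes tested). For tRNA-Phe-2-1-/- none passed (0%, limma), with 1071 at an unadjusted p below 0.05, against 3063 for the other line. These contrasts share the WT samples with each other. Among the 42 named genes that passed the test between the lines, the fitted level in tRNA-Phe-2-1-/- differed from WT by more than 0.5 log2 units for Lcn2, Egr2, Col1a1, Per2, Fosl2 and Sinhcaf, with fitted values of -1.03, -1.50, -1.57, -0.65, -0.57 and 0.59.

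**Figure D5:**
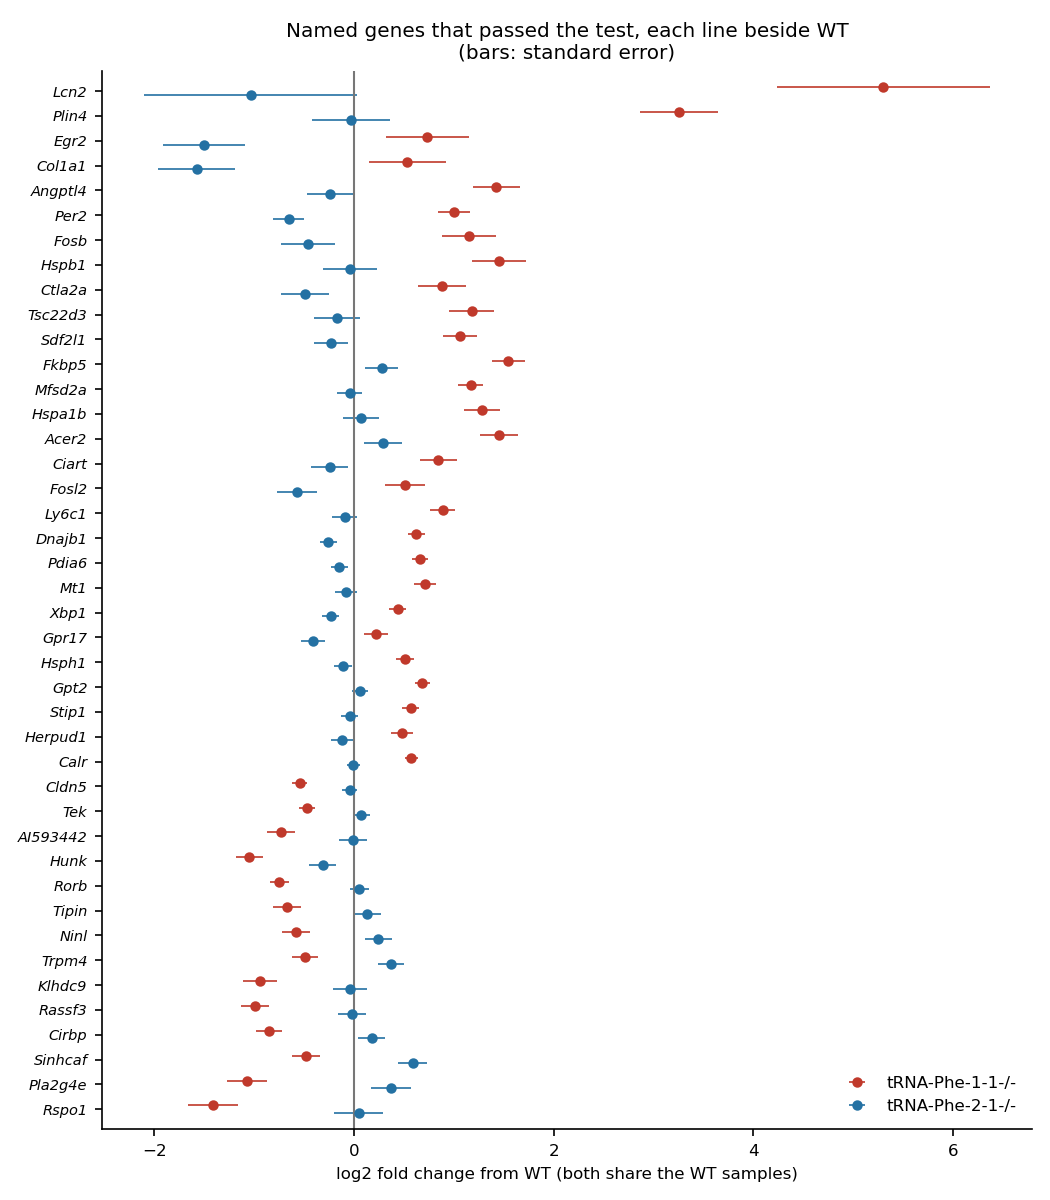
Log2 fold change from WT (x axis) of each line for the 42 named genes that passed the test between the lines (rows), with bars for the standard error; both lines share the 3 WT samples. Most tRNA-Phe-2-1-/- points lie near 0, and those of Egr2 and Col1a1 lie at -1.50 and -1.57.

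The same contrast was made in the liver, in other libraries that were normalised separately. There 2521 of 15856 genes passed, 1169 higher (7.37%) and 1352 lower (8.53%) in tRNA-Phe-1-1-/-. Of the 76 genes higher in brain, 69 were tested in liver, 37 were higher there and none was lower. Of the 26 lower in brain, 17 were tested, and 4 were lower and none higher. Those 4 falls were chosen after their values were seen and were Cirbp, Cldn5, Tek and Zc3h6, with liver log2 fold changes of -1.85, -1.40, -0.84 and -1.96. Among the named rises, Fkbp5, Hsph1, Dnajb1, Per2 and Mt1 were higher in liver by 2.87, 1.93, 0.75, 2.57 and 6.34 on the log2 scale. Calr, Xbp1 and Plin4 had liver values of 0.34, 0.31 and 1.27 that did not pass, and whether the effects differ between the tissues was not tested.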

How the data were processed

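Total RNA from brain and liver was sequenced in 3 samples per genotype and tissue. In the methods of the study, reads were trimmed (Trim Galore) and mapped to GRCm38.p6 by STAR, and the authors quantified genes with Salmon against GENCODE vM24 and a mitochondrial annotation of their own, and normalised each tissue in DESeq2. The deposited brain table holds this signal, normalised counts, for 55469 genes, and whole reads were recovered from 100% of its values (tolerance 0.001). The authors' tables of comparisons hold fold changes and p-values and were not used. Here log2(normalised count + 1) of genes with a mean of at least 10 over the 12 brain samples was fitted with limma 3.58.1 (R 4.3.3), 1 mean per genotype, variance trend on, Benjamini-Hochberg adjustment. Fold changes on this scale understate those of low genes. edgeR 4.0.16 and DESeq2 1.42.0 on the recovered reads were alternatives. The limma fit, but not the alternatives, was tested on simulated data. The simulation held no region differences between samples, so it cannot show how the fit behaves with them. Intervals are 95%.

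Named genes were, among protein-coding calls without overlap and with a mean of at least 50, those with the 15 largest rises and the 12 largest falls, the 3 members of lowest adjusted p in each list with a call, and 7 fixed genes. Members and lists were chosen with earlier results of these data known. Litters were not given per sample. In the main brain fit, p-values and standard errors rest on the spread between the 3 samples of each genotype, pooled over all genotypes fitted. The spread of the WT samples and of the line not compared therefore enters them as well. The labels do not tie livers and brains to the same mice.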

Additional observations from a re-analysis of the deposited data

Results flagged for a closer look

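For 4 of the 63 named genes the 3 and 3 samples did not overlap in either tissue and lay in opposite directions in brain and liver. In brain, the 3 and 3 samples did not overlap for 20.8% of all genes tested, and no such share was computed for liver. Sinhcaf and Hunk were named by a rule that required no overlap in brain. The difference between the tissues was not tested, and both tables were normalised separately. Sinhcaf had a log2 fold change of -1.07 in brain and 0.50 in liver, and the liver value did not pass the test. Hunk had -0.73 in brain and 0.60 in liver, where it did not pass. Atf4 had 0.35 in brain, where it did not pass, and -0.49 in liver (limma, adjusted p = 0.017). Prox1 had -1.23 in brain, where it did not pass and where tRNA-Phe-2-1-/- replicate C held 1365 counts against 282 and 272 in the other replicates, and 1.20 in liver (limma, adjusted p = 0.00219).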

How the results depend on the processing

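The sign of the 42 named genes that passed, and of the medians of the ER chaperone, glucocorticoid, heat shock and immediate early lists, did not change under any setting. For the 42 genes this was fixed in advance in the fits that left out samples, because their 3 and 3 samples did not overlap. Signs did change for values that passed no test: without tRNA-Phe-2-1-/- replicate C or tRNA-Phe-1-1-/- replicate A for the choroid plexus, thalamic, striatal, ependymal and midbrain medians and Calb2, without both for the myelin median, and, with values near 0, for 7 other list medians and for Farsa, Slc32a1 and Capza1. The 102 calls became 62 without a variance trend, 6 in a fit of the 6 samples alone and 672 with DESeq2. The 76 higher became 37, 5 and 409, and the 26 lower 1 and 263 in the latter fits. Leaving out 1 sample gave 11 to 151 calls, 9 to 110 higher and 2 to 41 lower, with 151 without tRNA-Phe-3-1-/- replicate C. Without the 2 samples that stood apart by region, a setting chosen after seeing the data, 36 were called, 26 higher and 10 lower. Of the 10 ER chaperone calls, 6 were made without a variance trend, 1 in the 6 samples alone and 4 without the 2 samples, with 2 to 12 on leaving out 1. The 8 glucocorticoid calls were 1 in the 6 samples and 16 with DESeq2, with 0 to 10 on leaving out 1, and the list median moved from 0.85 to 0.98 without the 2 samples. The 6 heat shock calls were 10 with a minimum mean of 50, 0 in the 6 samples, 15 with DESeq2 and 3 without the 2 samples, with 1 to 8 on leaving out 1. The 3 immediate early calls were 0 without a trend, in the 6 samples and without the 2 samples, and 5 with DESeq2, with 0 to 3 on leaving out 1. The cause of these shifts was not tested. The smaller fits had fewer samples, and the part of this in the shifts was not tested either. Replicate letters did not pair the samples (correlations -0.05, 0.08 and 0.01 for A, B and C). With a replicate block there were 88 calls, 70 of them among the 102, and 1 immediate early call, and with the block on the 6 samples alone, also added after seeing the data, there were 0 calls in all genes and in each of the 4 lists.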
